A study of Rattus norvegicus with 12 samples.

Results

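The genes described here are 10 receptors through which rat liver senses bile acids, foreign compounds and lipids. They are the bile acid receptor FXR (Nr1h4) with its partners SHP (Nr0b2) and LRH-1 (Nr5a2), the growth factor receptor Fgfr4, the xenobiotic receptors PXR (Nr1i2) and CAR (Nr1i3), the oxysterol receptors LXR-alpha (Nr1h3) and LXR-beta (Nr1h2), the liver factor Hnf4a, and the common dimer partner RXR-alpha (Rxra). Members were taken as every probe set, the group of short probes that reads 1 transcript on an Affymetrix array, that the platform annotation maps to 1 of these symbols and to no other gene. This gave 15 of the 31099 probe sets, and all 10 genes had at least 1, of 14218 genes with a single symbol. Nr5a2 and Hnf4a had 3 probe sets each, Nr1h2 had 2 and the other genes had 1.

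RNA was measured in 12 livers, with 1 array per rat. There were 3 germ-free Sprague Dawley rats, reared without microbes (animals 1, 3 and 4), and 3 conventional rats of the same strain that were not germ-free (animals 6, 7 and 8). The other 6 were Han Wistar rats: 3 that drank antibiotics for 8 days until necropsy (animals 13, 14 and 15) and 3 that received none (animals 1, 2 and 3). The antibiotics were streptomycin, labelled at 4 mg/ml, and penicillin, labelled at 2 mg/ml, in the drinking water; the labels do not settle whether these concentrations are of the stock or of the diluted water. No gene was altered in any group. The labels give no diet, age, sex or hour of tissue collection, and the effect of microbial status cannot be told apart from theirs. Strain and experiment coincide, so the strains were not tested against each other.

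Most of these receptors are ligand-activated transcription factors of the nuclear receptor family. FXR binds bile acids and raises SHP, which lacks a DNA-binding domain and represses LRH-1 and HNF4A at the genes of bile acid synthesis. In parallel, bile acids in the gut release a hormone of the fibroblast growth factor family that reaches FGFR4 at the hepatocyte surface and lowers the same genes. PXR and CAR switch on enzymes and carriers that remove drugs and toxic bile acids, and the LXRs respond to oxysterols by raising genes of sterol efflux and lipid synthesis. FXR, PXR, CAR and the LXRs bind DNA together with RXR-alpha. Gut bacteria deconjugate and dehydroxylate bile acids, so rats without them carry a different bile acid pool, which is the background to asking how these receptors stand in germ-free and antibiotic-treated animals.

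Signals are MAS5 intensities on a linear scale, and the arrays had been scaled to 1 common trimmed mean. Fold changes are differences of log2(signal + 16), given with their standard error, and understate the change of dim genes. A gene passed the test at an adjusted p under 0.05 by limma, adjusted over all 9300 genes above a signal filter; each gene was read by its brightest probe set. All 10 receptors lay above the filter, as did 14 of the 15 probe sets. The exception was the second probe set of Nr1h2, with signals of 0.5 to 10.1, which was not tested. Nothing in the labels beyond the animal number says how the rats were housed or grouped, so the p-values measure the spread between these animals. Of 8 hepatocyte markers, 7 had a probe set and all 7 were above the filter, with albumin at a mean signal of 9522 in germ-free, 8090 in conventional, 6781 in antibiotic and 4839 in untreated control livers. The 3' to 5' signal ratio of actin, a measure of RNA degradation, was 4.39 ± 0.762 in germ-free and 5.37 ± 0.839 in conventional livers, and 2.73 ± 0.131 in antibiotic and 2.55 ± 0.123 in untreated control livers (n = 3 each, ± SD). The two-sided p of an exact permutation test was 0.2 for each pair, and 0.1 is the smallest this design allows. The ratio was entered as a covariate in an alternative fit.

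In germ-free livers 1 receptor fell and 2 rose. CAR (Nr1i3) fell to a mean signal of 136 in germ-free livers, against 415 in conventional livers, while RXR-alpha and Fgfr4 rose. The other 7 did not pass, although all 7 had a positive fold change. The count of 3 of 10 stands beside 13.2% of all genes tested (1226 of 9300), and 13.2% of 10 genes would be between 1 and 2 genes. The germ-free and conventional animals did not overlap for 3 of the 10, namely Nr1i3, Nr1h3 and Fgfr4, a share close to the 29.9% of all genes. The median log2 fold change of the 10 was 0.24, beside 0.02 for all genes. Centring each array on its median moved the median of all genes by -0.11 in this comparison, so that of the 10 was then 0.13; 8 of the 10 stayed positive.

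**Figure D1:**
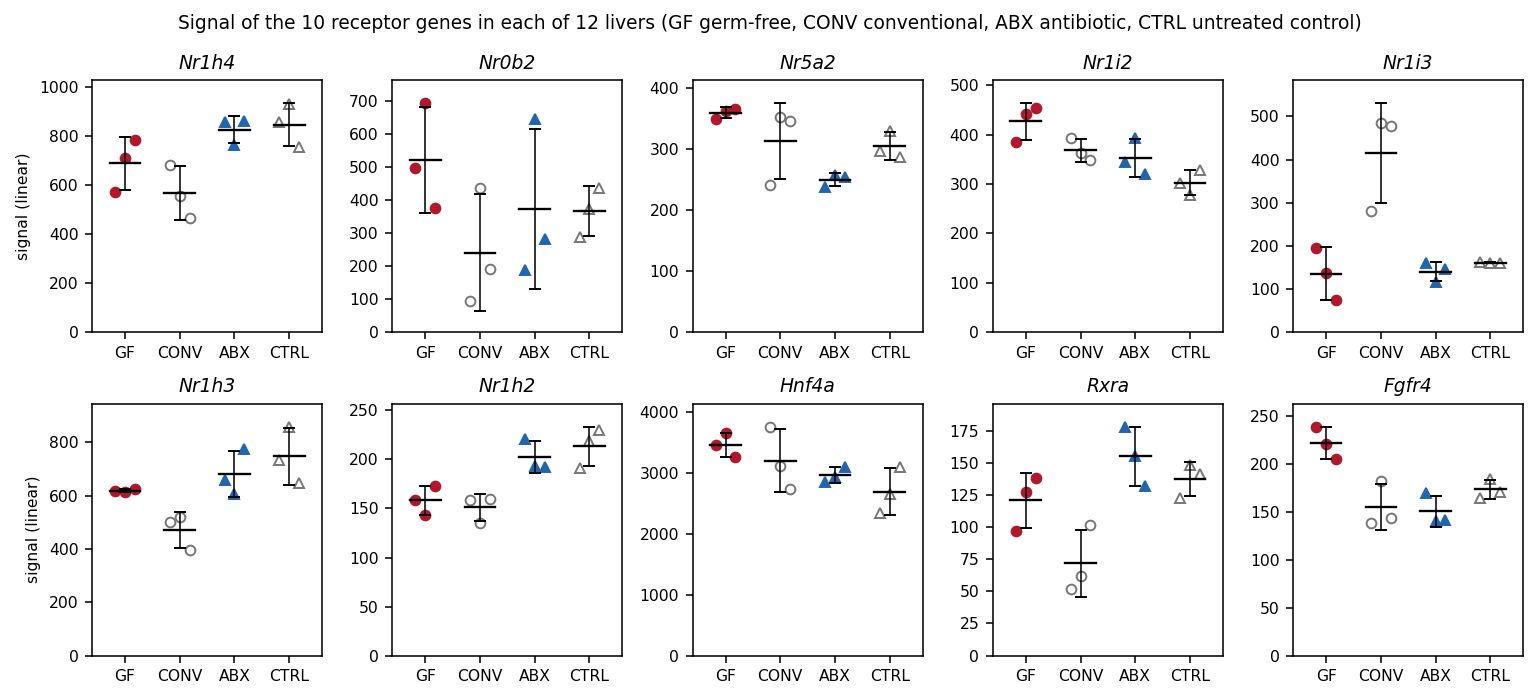
Linear signal of each receptor's brightest probe set in the 12 livers, 1 panel per gene; points are animals, horizontal lines group means and error bars SDs (n = 3). The 3 germ-free livers lie between 74.8 and 196.0 for Nr1i3, below all 3 conventional livers (281.6 to 485.1), whereas for Nr0b2 the animals of a group are spread widely.

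CAR is held in the cytoplasm of hepatocytes and enters the nucleus when phenobarbital-like compounds or bilirubin act on the cell, where it raises cytochrome P450 and conjugation genes. Its signal was 196.0, 136.6 and 74.8 in germ-free animals 1, 3 and 4, against 281.6, 485.1 and 478.2 in conventional animals 6, 7 and 8. All germ-free livers lay below all conventional livers, and the least and most extreme germ-free animal differed more than 2-fold between themselves. The log2 fold change was -1.55 ± 0.26 (adjusted p = 0.00147 by limma, 3 against 3 animals), and 205 of the 9300 genes had a smaller p. The call held in all 25 alternatives, with log2 values from -1.83 to -1.20 (-1.22 without germ-free animal 4) and adjusted p from 0.000159 to 0.0252. In the Han Wistar livers the signal was 159.5, 115.8 and 146.3 in antibiotic animals 13, 14 and 15, against 162.1, 160.5 and 161.4 in untreated controls 1, 2 and 3. These 6 values lie within the range of the germ-free livers and below every conventional one. Strain and experiment coincide, so this difference in level was not tested. The CAR signal correlated with the log2 actin ratio (r = 0.683), more strongly than that of any other receptor here. Conventional animals 7 and 8 had the highest actin ratios (6.172 and 5.433), and the Han Wistar livers had 2.473 to 2.874. Against this order, germ-free animal 1 (5.142) had a higher ratio than conventional animal 6 (4.498). The part of RNA degradation in the CAR level was not tested across the strains. The antibiotic animals lay below the controls by a margin of 1.0 signal unit at its narrowest, and the fold change did not pass (log2 -0.19 ± 0.26, adjusted p = 0.859 by limma).

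PXR is the receptor for a broad range of drugs, steroids and secondary bile acids such as lithocholic acid. Its signal was 384.8, 441.3 and 454.8 in germ-free livers, against 393.1, 363.1 and 348.5 in conventional livers. The groups overlapped by 1 animal, and the fold change of 0.20 ± 0.11 did not pass (adjusted p = 0.246 by limma). In antibiotic livers it was 344.5, 394.1 and 319.9, against 302.9, 278.6 and 328.1 in untreated controls, again with overlap. The fold change was 0.21 ± 0.11 (adjusted p = 0.543). The log2 fold changes of PXR were thus near equal in both comparisons, with a difference of 0.00 and a 95% interval of -0.34 to 0.33.

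Genes that CAR and PXR are known to regulate changed in both directions. Of 27 listed, 20 were tested, and in germ-free livers 2 rose, 7 fell and 11 missed the threshold. Of all genes tested, 13.2% passed. The list had a median log2 fold change of -0.15, beside 0.02 for all genes. Aldh1a1, a retinal dehydrogenase, had signals of 446.4, 365.6 and 230.4 in germ-free livers, against 2530.5, 1872.1 and 2047.4 in conventional livers (log2 -2.61 ± 0.31, adjusted p = 0.000151). Ces2c, a carboxylesterase, had 129.1, 97.2 and 103.9 in germ-free livers, against 313.1, 431.0 and 369.3 in conventional livers. For both genes all germ-free animals lay below all conventional ones. Both were named for their small p in this comparison, in which 29.9% of all genes did not overlap. Abcc4, an exporter of conjugates and bile acids across the sinusoidal membrane, changed by -0.82 ± 0.17, Abcb1a, a P-glycoprotein, by -1.11 ± 0.23 and the cytochrome P450 gene Cyp3a18 by -0.76 ± 0.19. Por, the electron donor of these P450 enzymes (-0.48), and the uptake carrier Slco1a4 (-0.82) made up the 7; Por lost its call in 5 and Slco1a4 in 11 of 25 alternatives. Thrsp, a gene of lipid synthesis, rose by 2.09, a call lost in 3 of 25 alternatives, and Cyp3a9 by 1.19 ± 0.27. Without germ-free animal 3 the adjusted p was 0.0674 for Thrsp, 0.0758 for Por and 0.0885 for Slco1a4. Cyp3a9 had signals of 849.9, 723.7 and 577.3 in germ-free livers, against 174.2, 469.5 and 331.2 in conventional livers, so its change runs opposite to that of Cyp3a18. Cyp3a23-3a1, a drug-induced P450 of rat liver, had a log2 value of 0.07 (adjusted p = 0.76). With the actin ratio as a covariate Abcb1a (adjusted p = 0.0621) and Cyp3a18 (0.112) no longer passed, and leaving out germ-free animal 4 took Cyp3a18 to 0.0561. Cyp3a genes are near-identical in places, so their signals may be shared, and Cyp2b1 and Cyp2b2, the usual readouts of CAR, had no probe set of their own here.

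RXR-alpha, with which FXR, PXR, CAR and the LXRs pair on DNA, had signals of 96.6, 127.3 and 138.3 in germ-free livers, against 51.7, 61.8 and 101.5 in conventional livers. Conventional animal 8 lay above germ-free animal 1, so the groups overlapped. RXR-alpha rose by 0.67 ± 0.19 (adjusted p = 0.0314 by limma). Leaving out germ-free 3 (0.108), germ-free 4 (0.109), conventional 6 (0.106) or conventional 7 (0.0969) ended that call, as did quantile normalization (0.0579), median centring (0.069), no filter (0.0507), the actin covariate (0.136) or a fit on the 6 Sprague Dawley arrays alone (0.0796). Rxrb, the related RXR-beta, had a log2 value of -0.08. In antibiotic livers RXR-alpha had 178.1, 155.1 and 132.1, against 122.5, 148.1 and 141.5 in untreated controls, which overlapped (log2 0.15 ± 0.19, adjusted p = 0.842).

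Fgfr4 encodes the tyrosine kinase receptor of hepatocytes for the gut hormone of bile acid feedback. Its signal was 239.2, 221.0 and 205.3 in germ-free livers, against 138.4, 182.6 and 144.2 in conventional livers. Every germ-free value exceeded every conventional one. Fgfr4 rose by 0.48 ± 0.12 (adjusted p = 0.0181 by limma), or 1.43-fold in mean signal. The call was lost in 7 of 25 alternatives, with adjusted p of 0.053 to 0.0587: leaving out germ-free 1, germ-free 3, conventional 6 or conventional 8, median centring or array weights, and a fit of the 6 Sprague Dawley arrays alone. In antibiotic livers Fgfr4 had 169.4, 140.7 and 141.8, against 165.0, 184.7 and 171.3 in untreated controls. Antibiotic animal 13 lay within the control range and the other two below it (log2 -0.19 ± 0.12, adjusted p = 0.638).

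The promoter windows of these 3 genes are shown with that of Nr0b2, the receptor with the widest standard error, as the stretch from 250 bases before to 50 bases after the annotated start in RefSeq (rat build GRCr8), on the strand of the gene. Capitals mark 4 short motifs found on either strand: AGGTCA, the half-site that most of these receptors recognise; TCAAGG, the core of the LRH-1 site; TATAAA, the TATA box; and GGGCGG, the GC box (CCGCCC on the other strand). All but the half-site were added after the windows had been read. TCAAGG overlaps AGGTCA where the longer LRH-1 site is present.
Nr1i3 (chr13:86165170-86165469, + strand): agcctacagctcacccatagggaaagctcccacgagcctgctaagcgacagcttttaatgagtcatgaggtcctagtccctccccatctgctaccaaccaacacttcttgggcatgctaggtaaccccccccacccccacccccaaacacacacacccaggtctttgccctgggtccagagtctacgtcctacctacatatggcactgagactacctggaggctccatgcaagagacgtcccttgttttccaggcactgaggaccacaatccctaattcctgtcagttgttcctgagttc
Rxra (chr3:31387642-31387941, + strand): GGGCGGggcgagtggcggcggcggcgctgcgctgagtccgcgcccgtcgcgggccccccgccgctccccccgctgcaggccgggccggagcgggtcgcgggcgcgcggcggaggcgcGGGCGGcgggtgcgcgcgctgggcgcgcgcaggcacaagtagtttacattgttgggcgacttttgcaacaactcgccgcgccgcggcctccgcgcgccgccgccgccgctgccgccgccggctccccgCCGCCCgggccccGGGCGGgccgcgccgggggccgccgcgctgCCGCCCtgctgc
Fgfr4 (chr17:9481340-9481639, - strand): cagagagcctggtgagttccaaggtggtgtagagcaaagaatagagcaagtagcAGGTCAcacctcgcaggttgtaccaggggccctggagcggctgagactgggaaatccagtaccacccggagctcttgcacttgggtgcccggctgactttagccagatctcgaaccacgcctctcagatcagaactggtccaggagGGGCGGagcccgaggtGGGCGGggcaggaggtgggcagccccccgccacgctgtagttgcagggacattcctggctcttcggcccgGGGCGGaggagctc
Nr0b2 (chr5:151062910-151063209, + strand): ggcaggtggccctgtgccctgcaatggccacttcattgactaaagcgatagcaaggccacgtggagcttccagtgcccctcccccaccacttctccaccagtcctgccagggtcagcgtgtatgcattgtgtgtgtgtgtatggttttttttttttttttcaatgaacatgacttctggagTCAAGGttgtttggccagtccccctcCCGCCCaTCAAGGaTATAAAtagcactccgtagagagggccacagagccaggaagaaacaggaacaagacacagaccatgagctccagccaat

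The Nr1i3 window held none of these motifs, and that of Rxra held 5 GC boxes and no other. The Fgfr4 window held AGGTCA with its first base at position -196 from the start and 3 GC boxes. That of Nr0b2 held TCAAGG at -69 and -36, TATAAA at -29, next to the second of these, and 1 GC box. Windows were listed for 9 of the 10 genes, with 2 for Hnf4a, and AGGTCA was in 2 of these 10 windows (Fgfr4 and Nr5a2). Of 33365 distinct windows in the rat annotation, AGGTCA was in 16.2%, TCAAGG in 14.8%, TATAAA in 14.2% and GGGCGG in 33.1%. Longer forms, also searched on both strands, namely TCAAGGTCA for LRH-1, CAAAGTCCA for HNF4A, the inverted repeat AGGTCANTGACCT and the direct repeats AGGTCANAGGTCA and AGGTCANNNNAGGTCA, matched none of the 10 windows. These matches describe letters in the window only.

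FXR is the nuclear receptor for bile acids in hepatocytes. Its signal was 572.7, 711.6 and 785.7 in germ-free livers, against 684.9, 555.8 and 467.5 in conventional livers, so the groups overlapped (log2 0.28 ± 0.14, adjusted p = 0.234 by limma). In antibiotic livers it was 857.0, 765.5 and 860.9, against 857.0, 930.4 and 754.7 in untreated controls, with a fold change near 0 (log2 -0.03 ± 0.14). The 95% interval of that fold change ran from -0.34 to 0.28.

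SHP, the repressor that FXR induces, had the widest standard error of the 10 receptors in the fit. Its signal was 496.7, 693.8 and 375.1 in germ-free livers, against 93.4, 437.3 and 190.1 in conventional livers. Conventional animal 7 lay above germ-free animal 4, and the conventional animals spanned more than 4-fold. The log2 fold change was 1.27 ± 0.46 (adjusted p = 0.0828 by limma), and it was 1.80 (0.0156) without conventional animal 7, the only one of 25 alternatives in which it passed. In antibiotic livers SHP was 187.9, 647.1 and 281.8, against 288.1, 373.5 and 438.3 in untreated controls. Antibiotic animal 14 was above and the other two below all controls (log2 -0.14 ± 0.46). The fold change ran from -0.62 without animal 14 to 0.24 without animal 13, so its sign rested on single animals.

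LRH-1, which activates the bile acid synthesis genes that SHP represses, was read by 3 probe sets. The brightest (1390965_at) gave 348.8, 362.3 and 365.3 in germ-free livers, against 241.2, 351.2 and 345.3 in conventional livers. Only conventional animal 6 lay clearly apart, and the fold change did not pass (log2 0.21 ± 0.13, adjusted p = 0.31). The dimmest (1387573_a_at) gave 127.6, 130.0 and 169.0 in germ-free livers, against 54.1, 65.1 and 102.9 in conventional livers, with no overlap. In a fit of all 15523 probe sets above the filter it rose by 0.84 ± 0.18 (adjusted p = 0.00879 by limma). The third (1384835_at) gave 0.53 (adjusted p = 0.167), or 0.85 (0.0144) without conventional animal 8, and the mean of the 3 gave 0.53 (0.0462 over genes), so all 3 ran the same way but differed in size. Which transcripts each probe set reads was not tested. In antibiotic livers the brightest probe set gave 237.9, 256.5 and 254.3, against 296.0, 329.5 and 285.9 in untreated controls, without overlap (log2 -0.27 ± 0.13, unadjusted p = 0.0557, adjusted p = 0.49 by limma). The other two gave 0.02 and -0.03 in that comparison.

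**Figure D2:**
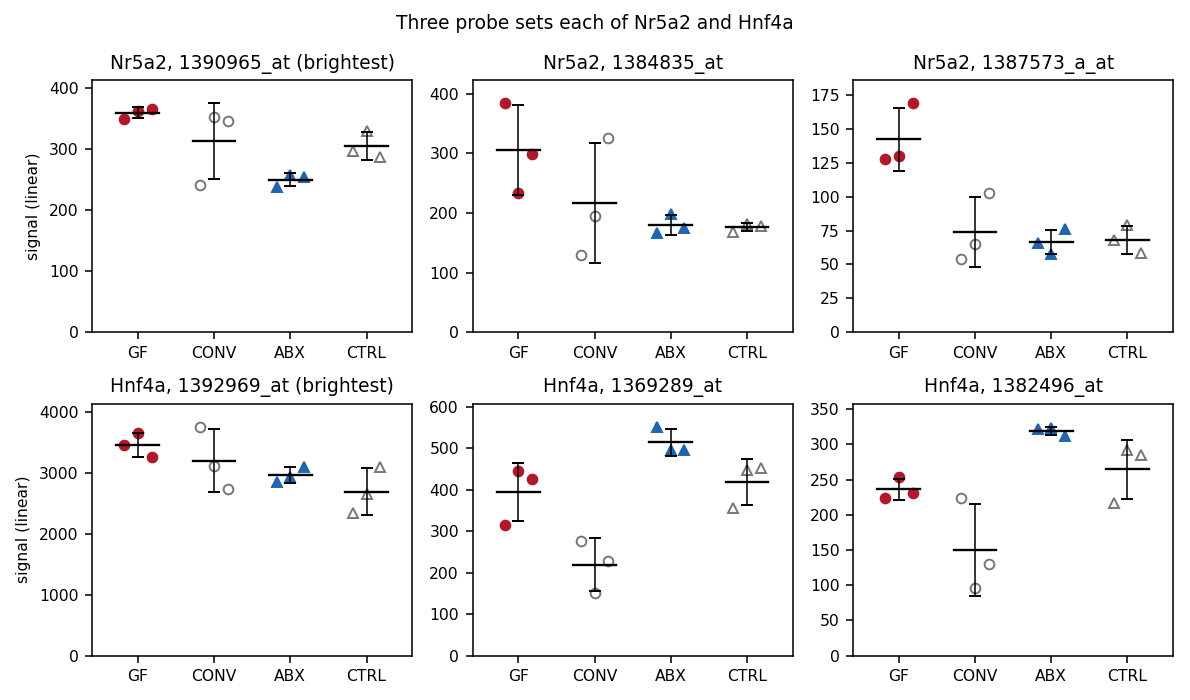
Linear signal of the 3 probe sets of Nr5a2 (upper row) and of Hnf4a (lower row) in the 12 livers (GF germ-free, CONV conventional, ABX antibiotic, CTRL untreated control); points are animals, lines means and error bars SDs (n = 3). The brightest probe set of each gene shows the smallest separation of germ-free from conventional livers, with log2 fold changes of 0.21 and 0.12.

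Genes under the bile acid receptors went both ways in germ-free livers. Of 19 listed, 16 were tested, 2 rose, 3 fell and 11 missed the threshold, beside 13.2% of all genes that passed. The median fold change of the list was -0.02. Cyp7a1, which carries out the first step from cholesterol to bile acids and is repressed through SHP and FGFR4, had signals of 1521.8, 1554.4 and 800.2 in germ-free livers, against 439.0, 365.6 and 259.5 in conventional livers. It rose by 1.79 ± 0.53 (adjusted p = 0.0386 by limma). In the same livers Fgfr4 rose and SHP had a positive fold change that did not pass. These are transcript levels, and their relation to Cyp7a1 was not tested. The Cyp7a1 call was lost in 8 of 25 alternatives, 5 of which each left out 1 animal: germ-free 1 (0.0936), germ-free 3 (0.134), conventional 6 (0.0561), conventional 7 (0.079) and conventional 8 (0.113). The other 3 were the unfiltered fit (0.0639), the robust prior (0.113) and the actin covariate (0.147). Cyp8b1, the enzyme that sets the share of cholic acid, missed the threshold at 0.56 ± 0.18 (adjusted p = 0.0567). Abcb4, the phospholipid flippase of the canaliculus and an FXR target, fell by 1.37 on the log2 scale. Abcb11, the bile salt export pump and another FXR target, had signals of 1607.4, 1576.2 and 1142.1 in germ-free livers, against 1953.5, 2298.0 and 2244.5 in conventional livers. It changed by -0.59 ± 0.16 (adjusted p = 0.0254), a call lost on leaving out germ-free animal 4 (adjusted p = 0.104), conventional animal 7 (0.0798) or conventional animal 8 (0.0696) and in the fit with the actin ratio (0.167). The carboxylesterase gene Ces1d changed by -0.94 ± 0.15, and Sdc1, which encodes syndecan 1, rose by 0.67 ± 0.14, which did not pass with the actin covariate (0.0738) and was 0.29 by its other probe set. Slc10a1, the uptake carrier that SHP is known to repress, had a log2 value of 0.00.

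Neither LXR passed the test. LXR-alpha, the form that predominates in liver and macrophages, had signals of 617.4, 614.0 and 625.9 in germ-free livers, against 500.1, 519.3 and 396.1 in conventional livers. The groups did not overlap and the germ-free SD was only 6.13, but the fold change of 0.39 ± 0.13 did not pass (adjusted p = 0.0638 by limma). It passed under quantile normalization (0.0471), and in no other of the 25 alternatives. LXR-beta, which most tissues express, had 159.0, 143.5 and 172.7 in germ-free livers, against 158.3, 134.9 and 159.9 in conventional livers, largely overlapping (log2 0.06 ± 0.11). In antibiotic livers LXR-alpha had 660.9, 605.5 and 777.1, against 734.3, 859.7 and 648.9 in untreated controls, and LXR-beta had 221.2, 193.1 and 192.3, against 190.9, 218.3 and 230.5 in untreated controls. Both overlapped, with log2 values of -0.13 ± 0.13 and -0.07 ± 0.11.

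Of 18 listed LXR targets, 16 were tested, and in germ-free livers 3 rose, 2 fell and 11 missed the threshold. Of all genes tested, 13.2% passed. The median fold change of the list was 0.22. The sterol exporters Abcg5 and Abcg8, which form 1 transporter, fell by 2.10 and 1.85 on the log2 scale. Srebf1, the lipogenic transcription factor, rose by 2.44 ± 0.38 and Mylip, which degrades the LDL receptor, by 0.65 ± 0.15, and Cyp7a1, an LXR target in rodents, was the third to rise. Abcg8 and Mylip were dim, with mean signals of 17.0 and 45.1 in germ-free and 105 and 23.1 in conventional livers. Listed targets of the same receptor thus moved in both directions, and the part of the LXRs in these changes was not tested. Abca1, a cholesterol exporter, had a log2 value of 0.39 (adjusted p = 0.0712) by the brightest of 4 probe sets, while another gave -1.48, so its direction is not settled. In antibiotic livers Abcg5 had 126.5, 131.0 and 155.7, against 75.3, 66.7 and 54.1 in untreated controls. All antibiotic animals lay above all controls (log2 0.92 ± 0.15, adjusted p = 0.053), and it passed in 5 of 25 alternatives, among them array weights (0.0228) and a robust prior (0.0366).

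Hnf4a maintains the hepatocyte programme and binds many genes of apolipoproteins, clotting factors and bile acid synthesis. Its brightest probe set (1392969_at) gave 3461.9, 3661.9 and 3261.9 in germ-free livers, against 3759.3, 3109.3 and 2728.8 in conventional livers. The groups overlapped (log2 0.12 ± 0.12, adjusted p = 0.551 by limma). A dimmer probe set (1369289_at) gave 314.9, 445.0 and 425.9 in germ-free livers, against 277.3, 151.0 and 229.1 in conventional livers, without overlap, and rose by 0.83 ± 0.19 (adjusted p = 0.0101 over probe sets). That call did not hold without germ-free animal 3 (0.054) or with the actin covariate (0.121). The third (1382496_at) rose by 0.68 ± 0.21 (0.0475), a call that was lost without any single Sprague Dawley animal other than conventional animal 6, and without untreated control 2 or 3 or any antibiotic animal. It was also lost with no filter (adjusted p = 0.0827 by limma), quantile normalization (0.0585), median centring (0.0819) or no intensity trend (0.0568). The actin covariate (0.385) and the 6 Sprague Dawley arrays alone (0.109) ended it as well. The correlation of the 2 dimmer probe sets over the 12 arrays, each strain centred on its mean, was 0.93, and theirs with the brightest was 0.53 and 0.71. Across the receptors, 6 of 14 probe sets passed, beside 12.2% of all 15523, and 2 of the 6 (1369289_at and 1382496_at) read Hnf4a. In antibiotic livers the brightest gave 2841.4, 2931.2 and 3102.7, against 2333.9, 2651.5 and 3093.1 in untreated controls (log2 0.14 ± 0.12). The dimmer 2 were above all controls in every antibiotic animal, with log2 values of 0.30 and 0.27 (adjusted p = 0.645 and 0.724).

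Of 20 listed HNF4A targets, 16 were tested, with a median fold change of 0.23 in germ-free livers. There 2 rose, 0 fell and 14 missed the threshold, a share near the 13.2% of all genes that passed. The 2 were the apolipoprotein genes Apoa2 (0.36 ± 0.09) and Apoc2 (0.35 ± 0.11). Neither passed with median centring (0.118 and 0.184) or the actin covariate, or once germ-free 3, germ-free 4 or conventional 7 was left out; Apoc2 lost its call in 12 of 25 alternatives. In antibiotic livers 0 of the 16 passed by limma, but 10 had an unadjusted p under 0.05, and the list median was 0.36. So did 8 of 20 tested CAR and PXR targets, 5 of 16 LXR targets and 4 of 16 genes under the bile acid receptors. The medians of those lists were 0.16, 0.16 and 0.10. Among other nuclear receptors, coregulators and genes of FGFR4 signalling the counts were 2 of 21, 1 of 17 and 1 of 11. Of all 9300 genes, 969 had an unadjusted p under 0.05 in that comparison. There the 7 hepatocyte markers had a median of 0.41, with all 7 at an unadjusted p under 0.05. Ttr, Apoa1 and Serpina1 are in both lists, so the hepatocyte markers are not a separate set from the HNF4A targets. The summed signal of the markers was 41677 to 52083 in antibiotic and 31159 to 38683 in untreated control livers. Of 8 macrophage markers 5 were at an unadjusted p under 0.05 there and 0 passed by limma, with a median of 0.52 and sums of 2121 to 3215 in antibiotic and 1512 to 2290 in untreated control livers. The part of cell makeup or RNA content in these values was not tested.

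**Figure D3:**
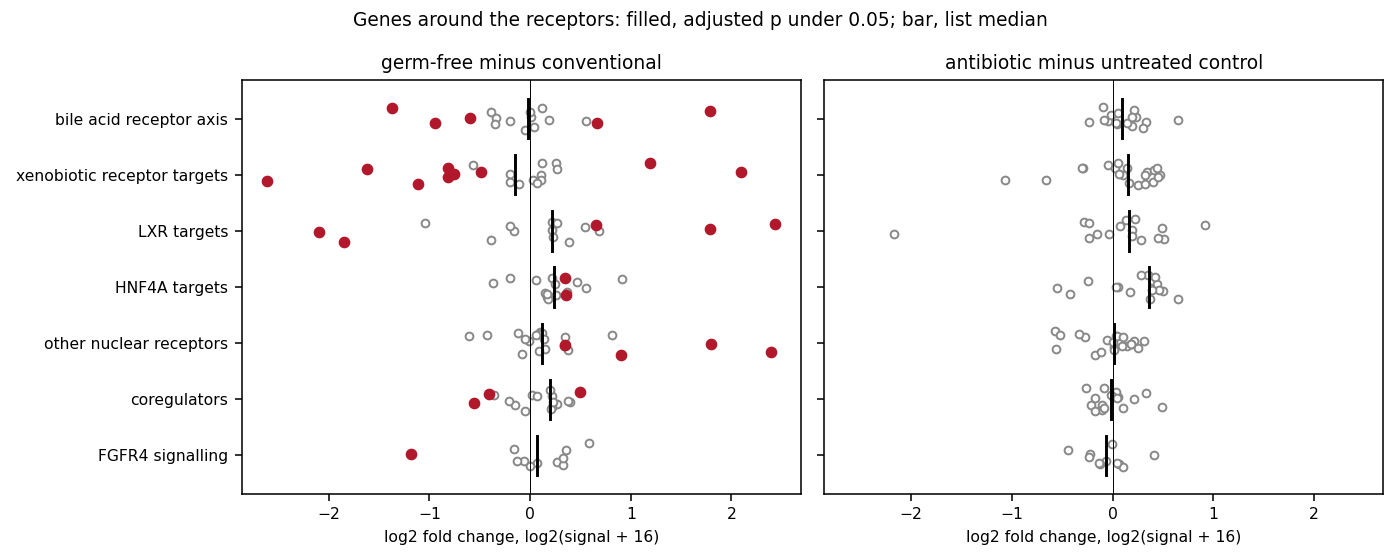
Log2 fold changes of the tested genes of 7 lists around the receptors, germ-free minus conventional (left) and antibiotic minus untreated control (right); each point is a gene, filled where its adjusted p was under 0.05, and bars are list medians. Filled points stand on both sides of 0 in the left panel and are absent from the right one.

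Among 21 tested nuclear receptors that are not in this set, 4 rose in germ-free livers, 0 fell and 17 did not pass. Of all genes tested, 13.2% passed in this comparison. The clock repressors Nr1d1 (2.39 ± 0.35) and Nr1d2 (1.80 ± 0.24) rose most, followed by the glucocorticoid receptor Nr3c1 (0.91 ± 0.14, with 0.43 from its other probe set) and Nr2f2 (0.34 ± 0.10), the last a call lost in 14 of 25 alternatives and with 0.02 from its other probe set. Since clock genes differed and no hour of collection is given, for a receptor with a daily rhythm the time of day and the germ-free state cannot be told apart. Ppara, the fatty acid receptor, had signals of 40.3, 25.1 and 39.3 in germ-free livers, against 20.9, 3.2 and 17.3 in conventional livers (log2 0.81 ± 0.26, adjusted p = 0.0569). Of 17 coregulators 1 rose, 2 fell and 14 did not pass, beside 13.2% of all genes that passed. The corepressor subunits Tbl1x (0.49 ± 0.14) and Tbl1xr1 (-0.56 ± 0.13) changed in opposite directions, and Nrip1, a corepressor, changed by -0.41 ± 0.13; Tbl1x lost its call in 6, Tbl1xr1 in 5 and Nrip1 in 15 of 25 alternatives. The corepressor Ncor1 had a log2 value of 0.23 and the coactivator Ppargc1a of -0.36, neither past the threshold. The list around FGFR4 signalling also holds other growth factors and receptors of the family. Of its 11 tested genes 1 fell, beside 13.2% of all genes that passed. That gene was the hepatokine Fgf21, with 21.5, 14.9 and 47.5 in germ-free livers, against 136.7, 60.6 and 57.4 in conventional livers. The log2 fold change of Fgf21 was -1.18 ± 0.28 (adjusted p = 0.0134 by limma, and 0.0703 without germ-free animal 3). Its paralog Fgf19, known in mice as Fgf15, was at 0.2 to 2.5 in germ-free and 0.5 to 2.8 in conventional livers, below the filter, and Klb, the co-receptor, had no probe set of its own. Fgfr1 and Fgfr2, related receptors, had log2 values of 0.07 and 0.58 (adjusted p = 0.884 and 0.0504). Fgfr2 passed in 9 of 25 alternatives, among them the mean of its probe sets (0.71, adjusted p = 0.00234) and the 6 Sprague Dawley arrays alone (0.0122).

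Endothelial markers moved with the germ-free comparison. Of 10 endothelial markers 8 were tested and 6 rose, beside 13.2% of all genes that passed. The summed signal of the 8 was 1396 to 1948 in germ-free and 766.5 to 958.3 in conventional livers. Of 10 macrophage markers 8 were tested and 1 fell, near the 13.2% of all genes, with sums of 1802 to 2447 in germ-free and 2385 to 3462 in conventional livers. Sums of 3 tested bile duct markers (198.0 to 249.3 in germ-free and 211.9 to 309.6 in conventional livers), 9 stellate cell markers (1882 to 2230 and 2161 to 2559) and 2 lymphocyte markers (64.5 to 89.9 and 47.4 to 75.5) are given for comparison, and 0 of their members passed by limma, with 0, 1 and 0 at an unadjusted p under 0.05. Hepatocyte markers summed to 53472 to 60593 in germ-free and 50096 to 54851 in conventional livers. No tested marker was at 0 in any group mean. In whole liver, fewer cells of a type and less RNA per cell cannot be told apart, and the part of cell makeup in the receptor values was not tested.

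In antibiotic-treated livers none of the 10 receptors passed limma's test, and none had an unadjusted p under 0.05. Of all genes 2 passed (0.0215%), and 969 had an unadjusted p under 0.05. Log2 fold changes of the receptors ran from -0.27 for LRH-1 to 0.21 for PXR, with 7 negative, 3 positive and a median of -0.10. The antibiotic and untreated control animals did not overlap for 2 of the 10, Nr5a2 and Nr1i3, beside 18.3% of all genes. By their 95% intervals, which are not adjusted for the number of genes, the change of CAR lay between -0.74 and 0.36, that of Fgfr4 between -0.45 and 0.07, that of SHP between -1.12 and 0.84 and that of RXR-alpha between -0.25 and 0.56. The germ-free fold changes of CAR (-1.55), SHP (1.27), Fgfr4 (0.48) and RXR-alpha (0.67) each lay outside the antibiotic interval of the same gene. So did those of LXR-alpha (0.39, against -0.41 to 0.15) and LRH-1 (0.21, against -0.54 to 0.007). These intervals leave out the error of the germ-free value, and the tests of the differences follow.

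**Figure D4:**
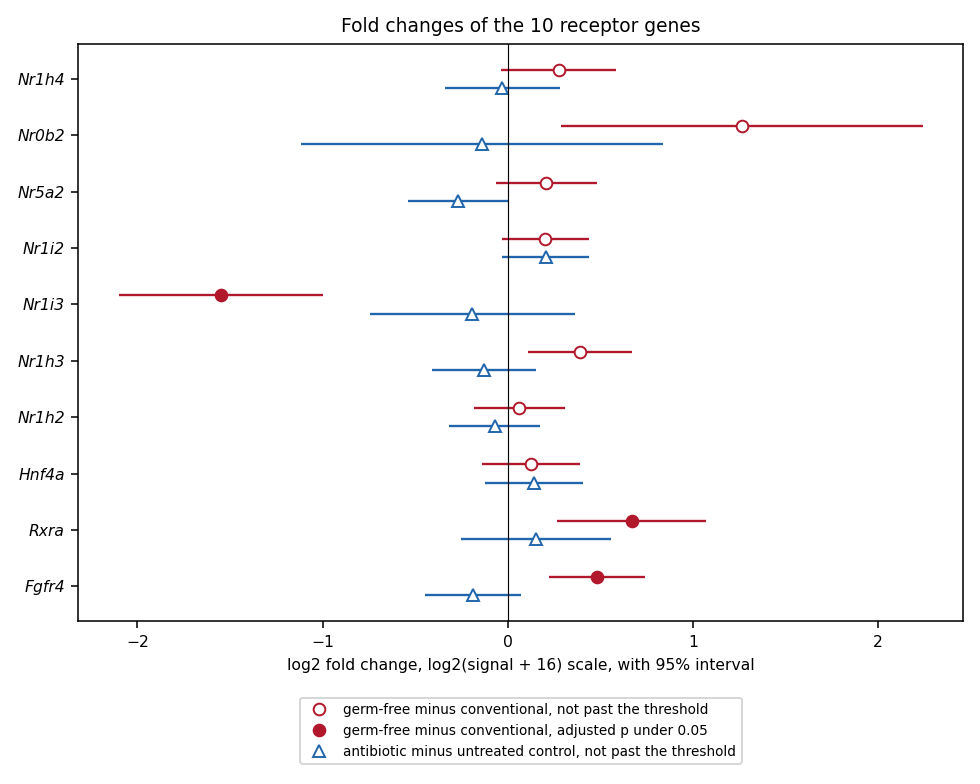
Log2 fold change of each receptor with its 95% interval, for germ-free minus conventional (circles) and antibiotic minus untreated control (triangles), n = 3 animals per group; filled symbols passed limma's test over all genes. Nr1i3 at -1.55 stands to the left and Rxra and Fgfr4 at 0.67 and 0.48 to the right in the germ-free comparison, and no antibiotic symbol is filled.

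The germ-free and antibiotic effects differed for 2 of the 10 receptors, beside 5.94% of all genes (552 of 9300). For CAR the germ-free effect was lower than the antibiotic effect by -1.36 ± 0.36 on the log2 scale (adjusted p = 0.0425 by limma), and for Fgfr4 it was higher by 0.67 ± 0.17 (adjusted p = 0.0352). The CAR difference did not pass in 15 and the Fgfr4 difference in 11 of 24 alternatives, and leaving out any 1 of 10 animals ended the CAR call. With the actin ratio as a covariate the CAR difference was -0.89 (adjusted p = 0.261). SHP had a difference of 1.41 ± 0.64, which missed the threshold (adjusted p = 0.227), and LXR-alpha had 0.52 ± 0.18 (adjusted p = 0.118), LRH-1 0.47 ± 0.18 (0.143) and RXR-alpha 0.52 ± 0.27 (0.288). Since the experiments used different strains, a difference of strain cannot be told apart from one of treatment here.

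Genes with the most similar pattern were sought for each receptor by the Pearson correlation of log2 values over the 12 arrays, each strain centred on its own mean. These are the highest correlations among all genes tested, over 12 points that fall in 4 groups, and are given as a description. CAR was closest to Cd14, the co-receptor for bacterial lipopolysaccharide (0.97), whose signal averaged 446 in germ-free, 1084 in conventional, 708 in antibiotic and 734 in untreated control livers. RXR-alpha was closest to the transporter gene Abca8a (0.95), Fgfr4 to Rfx7 (0.96) and LXR-alpha to Wapl (0.95). FXR was closest to Lima1 (0.94), SHP to Rwdd4 (0.93), PXR to Ptbp1 (0.92), Hnf4a to Dvl1 (0.92), LRH-1 to Mfsd14b (0.91) and LXR-beta to Elmo3 (0.90).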

How the data were processed

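Per the submitters' processing notes, the authors made the deposited signal intensities with MAS5; the sources used here do not give its version. That table holds 1 linear intensity per probe set and array for 12 arrays, without detection calls, and was used as deposited.

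Of 31042 probe sets left after 57 controls, 15523 reached the median of the mean signals, 19.67. Symbols came from the platform annotation, updated to the GRCr8 gene table by gene identifier (20764), accession (2) or kept (66). The brightest passing probe set stood for each of 9300 genes. log2(signal + 16) was modelled in limma 3.58.1 (R 4.3.3) as 4 group means, with all 12 arrays in 1 fit and eBayes moderation that follows signal (8 residual and 5.84 prior degrees of freedom); two-sided p-values received Benjamini-Hochberg adjustment. A second fit took every passing probe set. The fit was tested on simulated data. The number of arrays limits the precision.

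The receptors, gene lists, tests and alternatives were chosen with earlier results of these data known. Named genes were the receptors, up to 4 passing genes of each list per comparison by smallest p, a fixed set of known targets and the gene most correlated with each receptor; Por, Slco1a4 and Thrsp, the markers and Fgf19 were named after their values were seen. Promoters are RefSeq windows of GRCr8. Alternatives were offsets of 1 and 64, other filters, normalizations, variance models and probe set rules, the actin ratio as a covariate, each comparison's own 6 arrays, and leaving out each animal.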

Additional observations from a re-analysis of the deposited data

Results flagged for a closer look

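For 19 of the genes given values above, the germ-free effect differed from the antibiotic effect by limma at an adjusted p under 0.05. Of all genes tested, 5.94% (552 of 9300) did so. Many genes given values were picked because they passed in this or another comparison, so the count of 19 is no result about them. Values are the germ-free log2 fold change minus the antibiotic one. The receptors among the 19 were Nr1i3 (-1.36) and Fgfr4 (0.67). Among genes around them, the differences were -3.02 for Abcg5, -2.37 for Abcg8, -1.36 for Abcb4, -2.95 for Aldh1a1, -1.16 for Ces1d, -1.57 for Ces2c, -1.08 for Cyp3a18, -0.65 for Por, -1.60 for Fgf21 and -1.26 for Cd14. The difference was positive for Nr1d1 (2.96), Nr1d2 (2.33), Srebf1 (2.67), Cyp3a9 (1.85), Nr3c1 (0.89), Fgfr2 (1.02) and Tbl1x (0.76).

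These calls held in every alternative run for Abcg5, Abcg8, Abcb4, Aldh1a1, Nr1d1, Nr1d2 and Cyp3a9. With the actin ratio as a covariate Ces1d (adjusted p = 0.053), Srebf1 (0.0961), Ces2c (0.103) and Nr3c1 (0.13) did not pass, and Nr3c1 also missed with the mean of its probe sets (0.0871). Calls were lost in 15 of 24 alternatives for Por, 12 of 24 for Cd14 and Fgfr2, 10 of 24 for Tbl1x, 8 of 24 for Cyp3a18 and 8 of 23 for Fgf21. Strain and experiment go with this difference and cannot be told apart from it.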

How the results depend on the processing

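Of 740 receptor results under alternatives, 694 stayed on the same side of the threshold, 42 lost a call and 4 gained one. No called value changed sign; 19 uncalled ones did. The germ-free count of 3 receptors ranged from 1 to 3 when 1 animal was left out, and was 1 with median centring or the 6 Sprague Dawley arrays alone and 5 with the mean of probe sets, where Nr5a2 (adjusted p = 0.0462) and Hnf4a (0.0352) joined. The count of 6 receptor probe sets became 3 with median centring, the actin covariate or the 6 arrays alone, and 2 to 6 with 1 animal left out. The 2 receptors whose effects differed between comparisons became 1 with an offset of 1, median centring, no intensity trend, a robust prior or the actin covariate, 0 with no filter, and 0 to 1 with 1 animal left out. The antibiotic count stayed at 0 of 10 throughout.

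Over all genes, the germ-free count of 1226 was 606 with the actin covariate, 1901 with every probe set and 654 to 1236 with 1 animal left out (654 without germ-free animal 3); its share of higher calls was 48.9%, and 25.2% with median centring. The difference count of 552 was 230 with the actin covariate, 869 with array weights and 296 to 600 with 1 animal left out, 296 without germ-free animal 3 and 313 without untreated control 2. The antibiotic count of 2 was 1 with an offset of 1, 4 with no filter, 0 with the 75th percentile filter, 6 with a robust prior, 15 with array weights and 0 to 10 with 1 animal left out. The cause was not tested. The actin ratio difference ran from -1.41 to -0.58 (germ-free minus conventional) and 0.12 to 0.26 (antibiotic minus untreated control). No paired analysis was possible because the groups compared share no animal numbers.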
